A study of Homo sapiens with 6 samples.

Results

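Enzymes of the pentose phosphate pathway and other cytosolic enzymes that make NADPH were followed in A549, an established epithelial line from a human lung adenocarcinoma. The set was defined by gene symbol in the deposited table: PGLS, PGD, TALDO1, TKT, RPIA, RPE, ME1 and IDH1. Each of the 8 symbols matched 1 row of the 60612 genes in the table, and all 8 were among the 15937 genes with enough counts to test. Cells received a small interfering RNA (siRNA) against GSE1, here called siGSE1, or a negative control siRNA, with 3 libraries in each group and RNA taken 48 hours after transfection. Both groups carry the same line with no other allele or agent named, and the sources used here give neither the siRNA sequences nor whether replicates came from separate cultures. The p-values below therefore measure only how far these libraries spread, which could be technical.

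The pentose phosphate pathway branches from glycolysis at glucose 6-phosphate. Its oxidative branch yields NADPH and ribulose 5-phosphate, and its reversible non-oxidative branch turns pentoses into glycolytic sugars or supplies ribose for nucleotides. NADPH is the reductant of fatty acid and sterol synthesis and of the glutathione and thioredoxin systems, and malic enzyme 1 and isocitrate dehydrogenase 1 make it in the cytosol from other substrates. In A549 cells the transcription factor NRF2 is known to be constitutively active because its inhibitor KEAP1 is mutated, and NRF2 is known to drive PGD, TALDO1, TKT, ME1 and IDH1.

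Promoter sequence is shown for the 3 enzymes with the largest fold changes, because PGD and IDH1 moved one way and ME1 the other. Each window runs from 250 bases before to 50 bases after the annotated start, on the gene's own strand, from RefSeq in build GRCh38.p14. Capitals mark matches to TGACNNNGC on either strand, the core of the antioxidant response element that NRF2 binds. The windows are chr1:10398814-10399113 on the plus strand for PGD, chr2:208255022-208255321 on the minus strand for IDH1, and chr6:83431002-83431301 on the minus strand for ME1.
PGD: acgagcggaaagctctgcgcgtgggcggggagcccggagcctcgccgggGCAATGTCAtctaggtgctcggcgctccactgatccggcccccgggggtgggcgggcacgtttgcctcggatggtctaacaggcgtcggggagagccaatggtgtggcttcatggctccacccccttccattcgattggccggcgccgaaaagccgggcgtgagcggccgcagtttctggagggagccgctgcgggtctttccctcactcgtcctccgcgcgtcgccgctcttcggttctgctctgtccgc
IDH1: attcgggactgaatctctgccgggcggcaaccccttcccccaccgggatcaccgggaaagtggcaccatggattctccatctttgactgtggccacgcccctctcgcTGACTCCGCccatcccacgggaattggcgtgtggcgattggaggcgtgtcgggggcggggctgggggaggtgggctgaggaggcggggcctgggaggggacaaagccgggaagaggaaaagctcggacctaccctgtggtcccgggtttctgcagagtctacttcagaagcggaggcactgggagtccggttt
ME1: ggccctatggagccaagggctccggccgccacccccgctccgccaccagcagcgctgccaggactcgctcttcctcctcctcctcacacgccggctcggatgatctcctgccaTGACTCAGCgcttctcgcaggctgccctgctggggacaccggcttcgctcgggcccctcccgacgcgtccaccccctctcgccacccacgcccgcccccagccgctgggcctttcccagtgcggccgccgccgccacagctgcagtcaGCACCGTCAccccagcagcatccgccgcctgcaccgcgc
PGD had 1 match 201 bases before the start, on the strand opposite to the gene. IDH1 had 1 match 143 bases before the start used for the window shown and 0 in its other annotated window, and ME1 had matches 137 bases before and 12 bases after its start. RPE, which did not pass the test of its level, also had 1 match, 151 bases before its start. In all, 4 of the 8 enzymes had a match, against 16.1% of the 27305 genes in the promoter table. No match lay in the windows of TKT, TALDO1, PGLS and RPIA. The sterol regulatory element TCACNCCAC matched 0 of the 8, against 1.39% of all genes. Both strands of the same windows were searched for each motif. These matches describe letters in a window and do not show binding.

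The targeted gene was measured first. GSE1 had 3.84, 4.06 and 3.73 FPKM (fragments per kilobase of exon, scaled to the library total) in siGSE1 replicates 1, 2 and 3, against 7.37, 8.06 and 7.92 FPKM in control replicates 1, 2 and 3, and fell by 1.03 on the log2 scale (edgeR adjusted p = 2.14e-08). KLF6, a zinc finger transcription factor named in the series title, rose by 1.06 on the log2 scale (edgeR adjusted p = 1.05e-08). Library totals were 17521807 to 19914346 counts in siGSE1 cells and 14475992 to 20755506 counts in control cells. Control replicate 2 stood apart: chi-square over its degrees of freedom came to 9.99 and 8.84 when its counts were set against the other control libraries, while siGSE1 pairs gave 2.48 to 3.30 and the remaining control pair 4.49. The epithelial markers, led by KRT18, KRT8 and KRT7, summed to 2101 to 2115 FPKM in siGSE1 libraries and 2203 to 2539 FPKM in control libraries, highest in control replicate 2, and 3 of 7 tested were lower. EPCAM averaged 0.667 FPKM in siGSE1 cells and 0.957 FPKM in control cells, and 8 of 9 markers of alveolar type 2 cells were under 1 FPKM in both groups. Leukocyte markers summed to 4.22 to 5.80 FPKM in siGSE1 libraries and 4.66 to 7.15 FPKM in control libraries, with CD3D at 0 in every library. Fibroblast markers summed to 2.50 to 2.80 FPKM in siGSE1 libraries and 1.43 to 2.53 FPKM in control libraries, and endothelial markers to 1.44 to 2.28 FPKM in siGSE1 libraries and 0.81 to 1.09 FPKM in control libraries. Of 2 endothelial markers tested, 1 was higher, ESAM, which rose 2.23-fold (edgeR adjusted p = 0.00472). The part these markers play in the results was not tested.

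PGD fell to 73.5%, IDH1 to 74.1% and TKT to 90.2% of the control level in siGSE1 cells, and ME1 rose 1.23-fold. PGLS, TALDO1, RPIA and RPE did not pass the threshold. Of the 8, 1 was thus higher, 3 were lower and 4 did not pass, and the higher call, ME1, was lost when any library but control replicate 2 was left out. Over all genes tested, 19.9% were called in either direction, 10.9% higher and 9.02% lower, by edgeR's quasi-likelihood test with Benjamini-Hochberg adjustment over the 15937 genes and a threshold of 0.05. The FPKM of all siGSE1 libraries lay below those of all control libraries for 4 of the 8 enzymes and for 14.9% of all genes tested. The median log2 fold change was -0.06 over the 8 enzymes and 0.00 over all genes tested. Among all called genes, 34.9% had a larger absolute change than PGD, 36.1% than IDH1, 63.2% than ME1 and 99.8% than TKT. With library sizes rescaled so that FPKM sum to a fixed total (TPM scaling), 1 enzyme was higher and 2 were lower. Over all genes that scaling called 21.8%, 16.0% higher and 5.83% lower, and moved the median log2 fold change to 0.07. The higher share of the calls was then 73.3%, against 54.6% with the main scaling. As in any bulk sample, fewer cells that express a gene and less of its RNA per cell cannot be told apart.

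**Figure D1:**
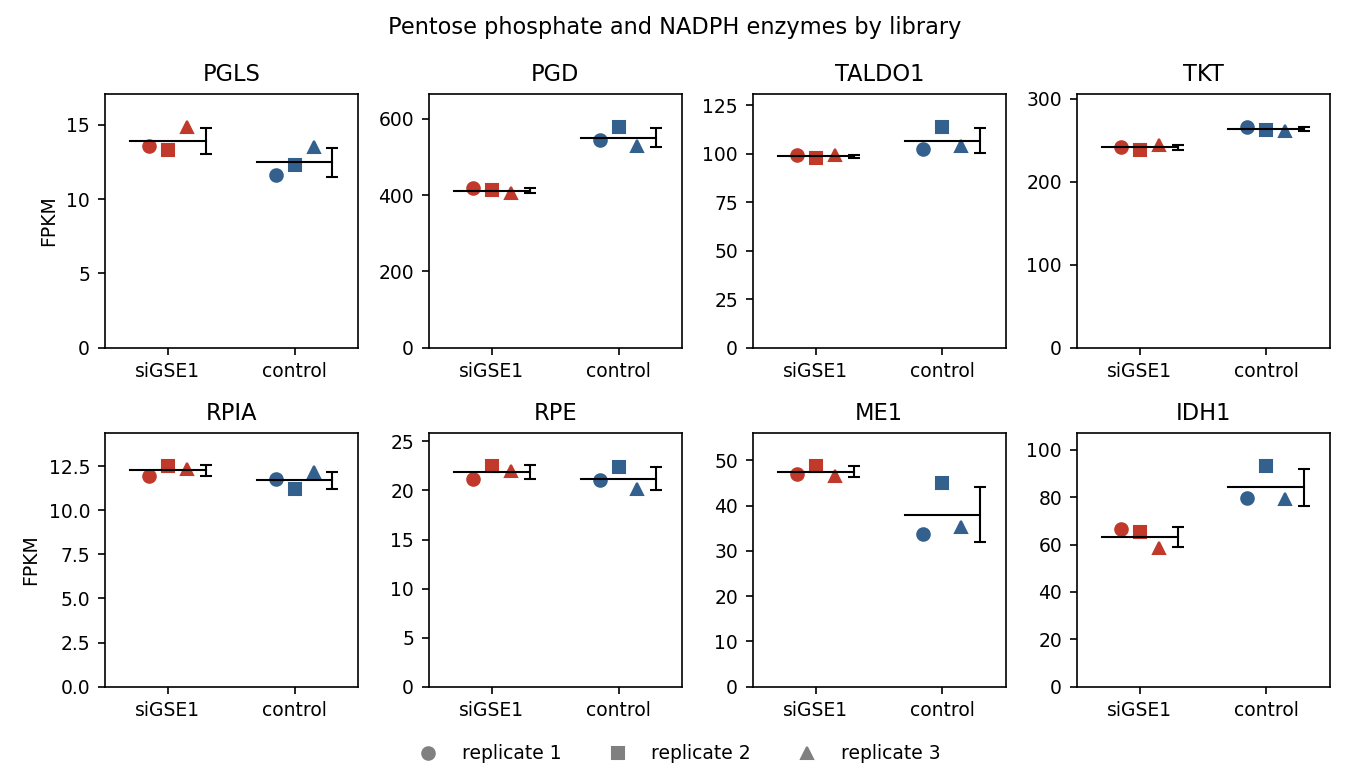
FPKM of each enzyme in every library, with siGSE1 at the left and control at the right of each panel. Points are libraries, lines are group means and bars are 1 SD (n = 3 each); the groups of PGD, TKT, IDH1, ME1 and TALDO1 are apart, and control replicate 2 of ME1, at 44.93 FPKM, lies close to the siGSE1 values.

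In the oxidative branch, PGLS hydrolyses 6-phosphogluconolactone and PGD then oxidises 6-phosphogluconate, which gives NADPH and ribulose 5-phosphate. PGD (ENSG00000142657, chromosome 1, 10398592 to 10420511, plus strand, hg38) had 419.13, 412.48 and 404.42 FPKM in siGSE1 replicates 1, 2 and 3, against 543.76, 579.75 and 529.57 FPKM in control replicates 1, 2 and 3. All siGSE1 values lay below all control values, and the gap between the groups was wider than the range within either. PGD fell by 0.44 on the log2 scale (SE 0.05, edgeR adjusted p = 1.35e-05), with a 95% interval of 0.683-fold to 0.790-fold of control. The call rested on 24477 to 26843 counts per siGSE1 library and 25551 to 40106 counts per control library. Control replicate 2 was the highest library, and without it the log2 fold change was -0.41.

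PGLS (ENSG00000130313, chromosome 19, 17511636 to 17521288, plus strand), the step just before PGD, had 13.54, 13.30 and 14.87 FPKM in siGSE1 replicates 1, 2 and 3, against 11.60, 12.32 and 13.52 FPKM in control replicates 1, 2 and 3. The ranges overlapped, since siGSE1 replicate 2 lay below control replicate 3. The change in PGLS was 0.14 on the log2 scale with an SE of 0.08 (edgeR adjusted p = 0.234), and its 95% interval of -0.02 to 0.30 lay wholly above that of PGD, -0.55 to -0.34. PGLS had only 556 to 841 counts per library, and 2 antisense genes of few counts overlap it. The more abundant of them, AC010618.3, had 2.66% of the PGLS count. Whether the counting used strand is not stated, so reads of a gene and its antisense partner cannot be told apart.

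The non-oxidative branch begins with RPIA, which isomerises ribulose 5-phosphate to ribose 5-phosphate, and RPE, which epimerises it to xylulose 5-phosphate. RPIA (ENSG00000153574, chromosome 2, 88691673 to 88750929, plus strand) had 11.93, 12.53 and 12.33 FPKM in siGSE1 replicates 1, 2 and 3, against 11.77, 11.19 and 12.15 FPKM in control replicates 1, 2 and 3. RPE (ENSG00000197713, chromosome 2, 210002565 to 210022260, plus strand) had 21.12, 22.53 and 21.98 FPKM in siGSE1 replicates 1, 2 and 3, against 21.10, 22.44 and 20.10 FPKM in control replicates 1, 2 and 3. For both enzymes the groups overlapped. RPIA had a log2 fold change of 0.04 (95% interval -0.13 to 0.22, edgeR adjusted p = 0.763) and RPE one of 0.02 (95% interval -0.11 to 0.15, edgeR adjusted p = 0.876), which was -0.00 without siGSE1 replicate 2 and -0.03 without control replicate 3. These intervals leave room for changes of up to 1.17-fold for RPIA and 1.11-fold for RPE. KANSL1L, on the opposite strand, overlaps RPE with 7.87% of its count, and RPEL1, an intronless relative of RPE, had 18 counts in all siGSE1 libraries together and 19 in all control libraries together.

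TKT and TALDO1 carry out the carbon transfers of the non-oxidative branch, TKT with thiamine diphosphate as its cofactor. TKT (ENSG00000163931, chromosome 3, 53224712 to 53256052, minus strand) had 241.92, 238.16 and 244.33 FPKM in siGSE1 replicates 1, 2 and 3, against 266.22, 262.43 and 261.26 FPKM in control replicates 1, 2 and 3. All siGSE1 values lay below all control values, and replicates were close, with a coefficient of variation of 1.29% among siGSE1 libraries and 0.985% among control libraries. TKT fell by 0.15 on the log2 scale (SE 0.04, edgeR adjusted p = 0.0267). With TPM scaling its log2 fold change was -0.09 with an adjusted p of 0.117, so the call on TKT depends on how libraries are scaled. The adjusted p was 0.103 without siGSE1 replicate 1, 0.137 without siGSE1 replicate 2 and 0.0789 without siGSE1 replicate 3, at log2 fold changes of -0.15, -0.14 and -0.16. The related genes TKTL1 and TKTL2 had 0 counts in every library.

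TALDO1 (ENSG00000177156, chromosome 11, 747415 to 765012, plus strand) had 99.16, 97.79 and 99.29 FPKM in siGSE1 replicates 1, 2 and 3, against 102.37, 113.96 and 104.06 FPKM in control replicates 1, 2 and 3. The groups did not overlap, which held for 36.1% of all genes tested, but control replicate 2 was well above the other control libraries. Its change on the log2 scale was -0.14 with an SE of 0.05 (edgeR adjusted p = 0.0792), of the size of that of TKT, with a wider spread among control libraries. Leaving out control replicate 2 gave -0.09 (adjusted p = 0.225), and leaving out control replicate 3 gave -0.17 (adjusted p = 0.0425), the only one of 15 alternatives in which TALDO1 passed. The ratio of TKT to TALDO1 was 2.44 in siGSE1 cells and 2.47 in control cells, a log2 difference of -0.01 (exact two-sided permutation p = 0.9, n = 3 each) that was 0.02 without control replicate 1.

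IDH1 oxidises isocitrate to 2-oxoglutarate in the cytosol and peroxisome, with NADPH as product. IDH1 (ENSG00000138413, chromosome 2, 208236229 to 208266074, minus strand) had 66.45, 65.20 and 58.59 FPKM in siGSE1 replicates 1, 2 and 3, against 79.84, 93.36 and 79.21 FPKM in control replicates 1, 2 and 3. Every siGSE1 library lay below every control library, and control replicate 2 was again the highest. IDH1 fell by 0.43 on the log2 scale (SE 0.07, edgeR adjusted p = 2.79e-04), with a 95% interval of 0.671-fold to 0.817-fold of control. Without control replicate 2 it fell by 0.35. The antisense gene IDH1-AS1 had 0.307% of the count of IDH1. IDH2, the mitochondrial enzyme of the same reaction, had 15.4, 14.76 and 15.69 FPKM in siGSE1 replicates 1, 2 and 3, against 14.7, 16.04 and 14.5 FPKM in control replicates 1, 2 and 3, and its groups overlapped. Its log2 fold change was -0.01 (95% interval -0.15 to 0.14, edgeR adjusted p = 0.958). The log2 ratio of IDH1 to IDH2 averaged 2.04 ± 0.13 in siGSE1 cells and 2.47 ± 0.06 in control cells (SD, n = 3 each). On the linear scale IDH1 stood at 4.12 times IDH2 in siGSE1 cells and 5.54 times in control cells. The groups of this ratio did not overlap, and the exact two-sided permutation p was 0.1, the smallest that 3 libraries against 3 allow, or 0.2 after Benjamini-Hochberg adjustment over the 4 ratios tested.

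ME1 converts malate to pyruvate in the cytosol and is known for supplying NADPH to lipid synthesis. ME1 (ENSG00000065833, chromosome 6, 83210402 to 83431051, minus strand) had 46.90, 48.83 and 46.62 FPKM in siGSE1 replicates 1, 2 and 3, against 33.73, 44.93 and 35.22 FPKM in control replicates 1, 2 and 3. It was the only enzyme of the 8 called higher, and its control libraries were the most spread of the set, with coefficients of variation of 2.54% among siGSE1 libraries and 16.0% among control libraries. The groups did not overlap, but control replicate 2 lay much nearer to the siGSE1 libraries than to the other control libraries. ME1 rose by 0.30 on the log2 scale (SE 0.08, edgeR adjusted p = 0.0180), or 1.23-fold with a 95% interval of 1.09-fold to 1.38-fold. Leaving out control replicate 2 gave 0.44 (adjusted p = 6.42e-08). Leaving out control replicate 1 gave 0.22 (adjusted p = 0.0870) and leaving out control replicate 3 gave 0.23 (adjusted p = 0.0741), so the call was lost in both cases. It was also lost without siGSE1 replicates 1, 2 and 3, with adjusted p of 0.0566, 0.0808 and 0.0661 at log2 fold changes of 0.30, 0.28 and 0.31, with edgeR's robust prior (adjusted p = 0.0666), and with limma on log2(FPKM + 1) (adjusted p = 0.0622). The direction was the same in all 15 alternatives run.

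The other malic enzymes are mitochondrial. ME3, which uses NADP, rose to 5.29, 6.27 and 5.86 FPKM in siGSE1 replicates 1, 2 and 3, against 4.76, 4.00 and 4.54 FPKM in control replicates 1, 2 and 3, which is 0.37 higher on the log2 scale (edgeR adjusted p = 0.0161). ME2, which mainly uses NAD, had a log2 fold change of -0.09 (95% interval -0.22 to 0.04, edgeR adjusted p = 0.318), at 3.63 ± 0.11 FPKM in siGSE1 cells and 3.80 ± 0.05 FPKM in control cells (SD, n = 3 each). The log2 ratio of ME1 to ME2 averaged 3.67 ± 0.05 in siGSE1 cells and 3.28 ± 0.23 in control cells (SD, n = 3 each), without overlap and with an exact two-sided permutation p of 0.1 (0.2 after adjustment over the 4 ratios). The log2 ratio of RPIA to RPE averaged -0.83 ± 0.01 in siGSE1 cells and -0.85 ± 0.14 in control cells (SD, n = 3 each; exact two-sided permutation p = 0.8). The difference, 0.02, was -0.05 without control replicate 2.

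**Figure D2:**
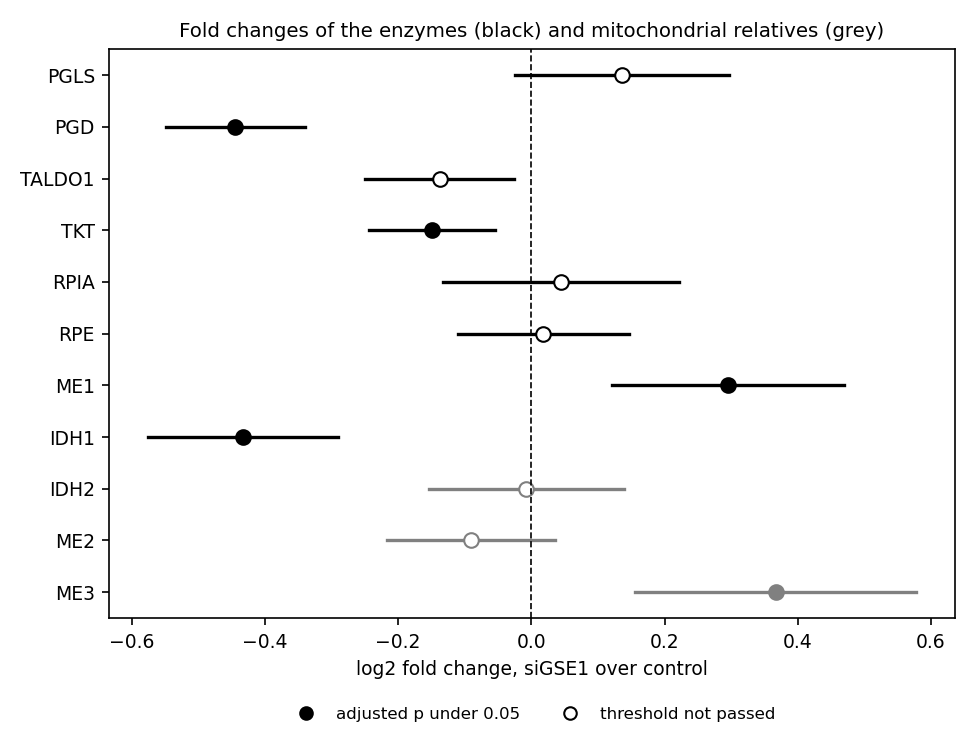
Log2 fold change of siGSE1 over control for the 8 enzymes (black) and for IDH2, ME2 and ME3 (grey), from edgeR. Points are estimates, lines are 95% intervals and filled points passed an adjusted p of 0.05; PGD at -0.44 and IDH1 at -0.43 lie furthest to the left, and ME1 at 0.30 is the only black filled point to the right of 0.

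Taking the enzymes as one pool, the 8 genes held 0.453% to 0.459% of all counts in siGSE1 libraries, against 0.517% to 0.548% in control libraries. Their summed FPKM was 902 to 920 in siGSE1 libraries and 1055 to 1140 in control libraries, with no overlap. PGD and TKT alone made up 80.3% to 81.0% of the pooled counts in siGSE1 libraries and 80.8% to 82.6% in control libraries, so the pool mostly reports these enzymes. Control replicate 2 had the largest sum.

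The levels of the enzymes spanned a wide range, and FPKM, being per exonic length, allows them to be ordered. In siGSE1 cells the order was PGD (412 ± 7.37 FPKM), TKT (241 ± 3.11), TALDO1 (98.7 ± 0.83), IDH1 (63.4 ± 4.22), ME1 (47.5 ± 1.20), RPE (21.9 ± 0.71), PGLS (13.9 ± 0.85) and RPIA (12.3 ± 0.31 FPKM; SD, n = 3 each). In control cells the order was the same, from PGD (551 ± 25.9 FPKM) through TKT (263 ± 2.59), TALDO1 (107 ± 6.26), IDH1 (84.1 ± 7.99), ME1 (38.0 ± 6.08), RPE (21.2 ± 1.17) and PGLS (12.5 ± 0.97) to RPIA (11.7 ± 0.48 FPKM; SD, n = 3 each). Neighbours in the order did not overlap in siGSE1 cells, and in control cells only PGLS and RPIA did. PGD stood above 99.6% and TKT above 99.3% of the genes tested in mean FPKM, and even RPIA stood above 77.8%.

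This order depends on the length by which counts are divided. The deposited exonic length of TKT is 9502 bases, whereas its main transcript in GENCODE release 29 has 3010 bases. For PGLS the lengths are 2840 and 1028 bases, for TALDO1 2907 and 1346, for PGD 3333 and 1885, and for IDH1 4699 and 2441. Per main transcript length, TKT had 762 ± 9.82 FPKM in siGSE1 cells, above PGD at 729 ± 13.02, whereas in control cells PGD had 974 ± 45.7 FPKM, above TKT at 831 ± 8.18 (SD, n = 3 each). PGLS moved up past RPE, at 38.4 against 30.0 FPKM in siGSE1 cells and 34.5 against 29.1 FPKM in control cells. Comparisons of one gene between groups are not touched by the length.

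**Figure D3:**
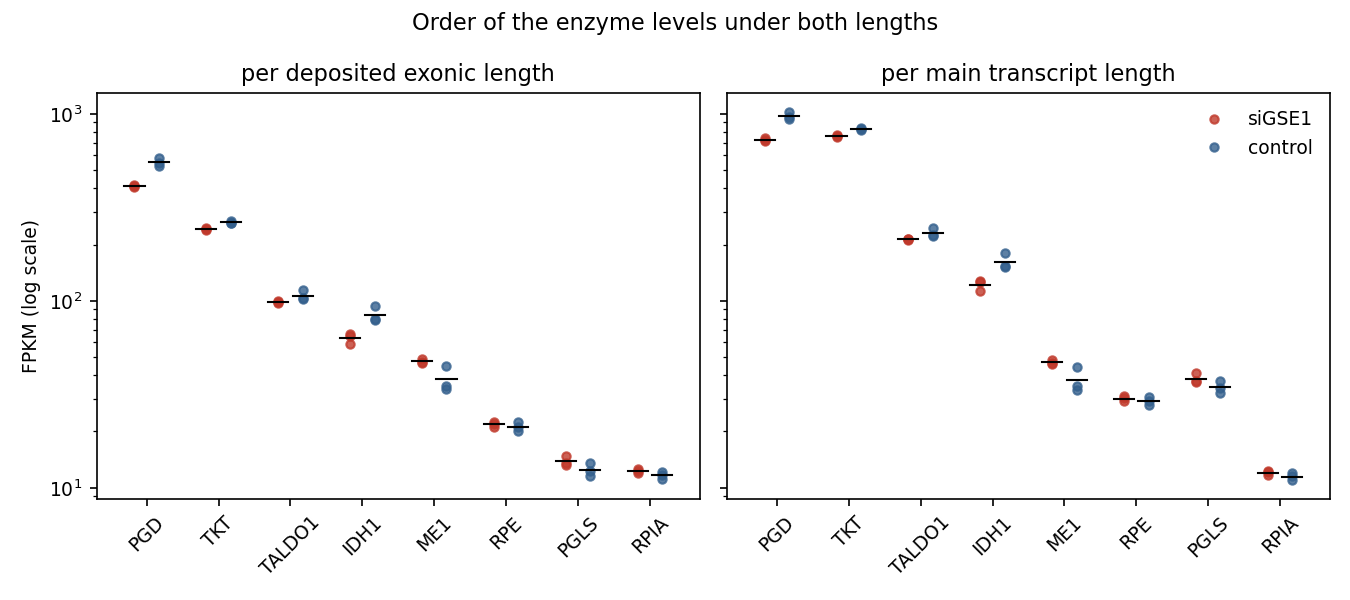
FPKM of the 8 enzymes on a log scale in siGSE1 (left of each pair) and control libraries, divided by the deposited exonic length in the left panel and by the length of the main GENCODE 29 transcript in the right panel. Points are libraries and short lines are means (n = 3 each); TKT lies below PGD on the left, and beside it on the right, where it passes PGD in siGSE1 cells.

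Of 12 tested genes of pentose and ribose metabolism outside the 8, 1 was higher, 2 were lower and 9 did not pass, with a median log2 fold change of -0.07. The higher count lies near the 10.9% of all genes tested that were higher, beside 9.02% that were lower. H6PD, which makes NADPH inside the endoplasmic reticulum, rose to 5.61 ± 0.18 FPKM in siGSE1 cells, against 4.60 ± 0.39 FPKM in control cells (log2 fold change 0.27, edgeR adjusted p = 0.0126). PGM2, a phosphopentomutase, fell by 0.45 on the log2 scale and PRPSAP2, a subunit associated with ribose-phosphate pyrophosphokinase, by 0.28. Of these calls the higher one was lost without siGSE1 replicate 2, siGSE1 replicate 3 or control replicate 1 (0 higher). The lower ones were 1 without siGSE1 replicate 1 or control replicate 1, and 0 without siGSE1 replicate 3. Of 14 tested genes of mitochondrial and folate-cycle NADPH supply and NAD kinases, 3 were higher, 2 were lower and 9 did not pass, with a median of -0.02, beside the same 10.9% higher and 9.02% lower over all genes. Those with the smallest adjusted p were MTHFD1L, a mitochondrial folate enzyme (0.31), NNT, the proton-driven transhydrogenase of the inner membrane (0.28), and ME3 described above, all of which rose. The lower genes were MTHFD2, with a log2 fold change of -0.34, and GLUD1, with -0.16. Only 1 was higher without siGSE1 replicate 2 or 3. The lower calls were 0 without siGSE1 replicate 1 or 3, 1 without siGSE1 replicate 2 or control replicate 1, 3 without control replicate 3, and 0 with TPM scaling.

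Enzymes that use NADPH included many that were called lower. Of 24 tested NADPH-using genes of redox and carbonyl metabolism, 13 were lower, 0 were higher and 11 did not pass. Their median was -0.23, and 9.02% of all genes were lower. This list, called the reductase list below, also held the NADPH oxidase genes CYBA, NOX1 and DUOX1, which did not pass. TXNRD1, which reduces thioredoxin, fell to 152 ± 4.53 FPKM in siGSE1 cells, against 236 ± 12.9 FPKM in control cells (log2 fold change -0.66). AKR1C1, an aldo-keto reductase, fell by 0.52 and PTGR1, a prostaglandin and alkenal reductase, by 0.53 on the log2 scale. Of 16 tested enzymes of fatty acid and sterol synthesis, 8 were lower, 0 were higher and 8 did not pass, with a median of -0.14. FASN, the fatty acid synthase, fell to 105 ± 4.25 FPKM in siGSE1 cells, against 128 ± 10.6 FPKM in control cells, and LBR, a sterol reductase of the nuclear envelope, fell by 0.32 on the log2 scale. Without control replicate 1, 5 of the 16 were lower, and 4 were without siGSE1 replicate 1 or 2. ME1 moved the opposite way from the called genes of both lists.

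Of 27 tested NRF2 targets outside the 8 enzymes, 20 were lower, 0 were higher and 7 did not pass, with a median of -0.29, where 9.02% of all genes were lower and 10.9% higher. A total of 5 of these targets are also in the reductase list. The drug transporter ABCC1 fell by 0.70 and the aldehyde dehydrogenase ALDH3A1 by 0.79 on the log2 scale. Among the 5 enzymes named above as NRF2-driven, PGD, TKT and IDH1 were lower, TALDO1 did not pass, and ME1 was higher. This pattern was known when the list was chosen. NFE2L2, which encodes NRF2, fell to 15.8 ± 0.30 FPKM in siGSE1 cells, against 20.5 ± 0.75 FPKM in control cells (log2 fold change -0.40, edgeR adjusted p = 6.40e-05). Its small MAF partner MAFG fell by 0.32 and its inhibitor KEAP1 by 0.21 on the log2 scale, and the transcription factor MYC rose by 0.24. Of 15 tested regulators, 2 were higher, 3 were lower and 10 did not pass, and the higher count lies near the 10.9% of all genes that were higher, beside 9.02% that were lower. A total of 3 regulators were higher without siGSE1 replicate 2 or with TPM scaling, and 1 was without siGSE1 replicate 3.

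The glycolytic enzymes, which share sugar phosphates with the pathway, had 11 lower, 1 higher and 4 not passed of 16, with a median of -0.24, where 9.02% of all genes were lower and 10.9% higher. HK1, the hexokinase that makes glucose 6-phosphate, fell to 33.6 ± 1.16 FPKM in siGSE1 cells, against 48.1 ± 1.76 FPKM in control cells (log2 fold change -0.54), and ALDOC, an aldolase of low abundance here, fell by 1.26. PFKL, a phosphofructokinase subunit, rose by 0.52 on the log2 scale.

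**Figure D4:**
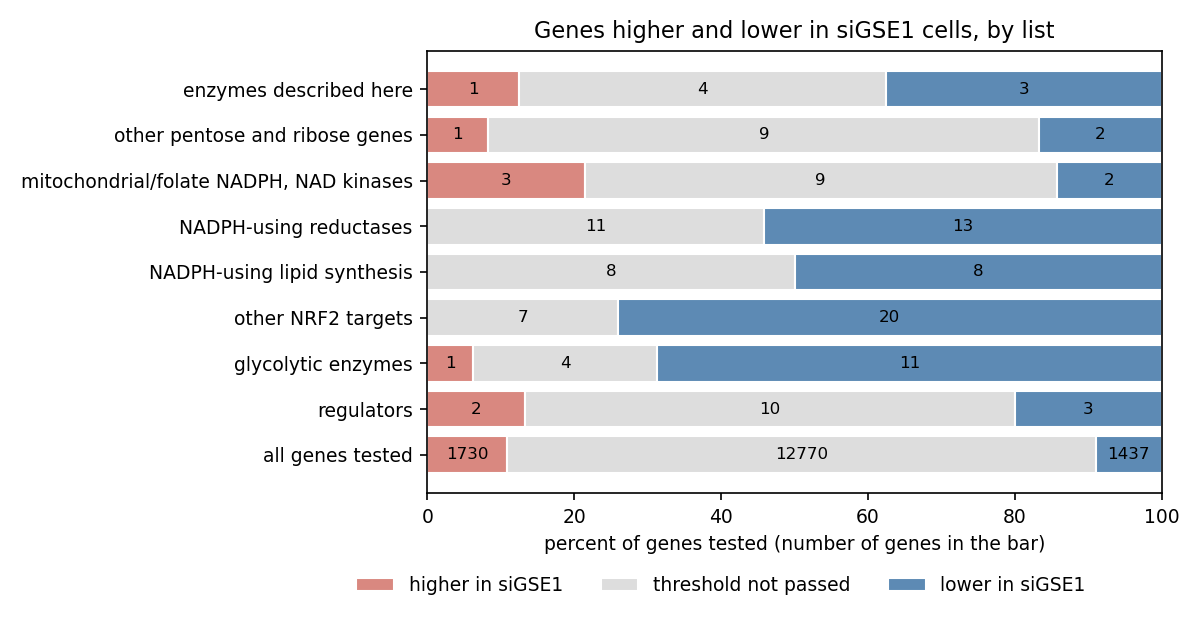
Percent of the tested genes of each list that were higher, did not pass or were lower in siGSE1 cells against control cells, at an edgeR adjusted p of 0.05, with the number of genes written in each bar. The bottom bar gives all 15937 genes. The lower share is widest for the other NRF2 targets, at 20 of 27, and is 2 of 12 for the other pentose and ribose genes.

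The genes most like PGD and IDH1 across the 6 libraries were found by Pearson correlation of log2 CPM (counts scaled to a common library size) among 6925 tested genes of at least 5 mean FPKM. For PGD they were TAF6L, UTP3 and ECH1, each with r of 0.999, and for IDH1 they included SELENOI, with r of 0.995, and PSMC4, with r of 0.994. The libraries share the group difference, and 299 genes had r over 0.95 with PGD and 181 with IDH1, so these likenesses describe few points and rank many near-ties.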

How the data were processed

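RNA-seq of A549 cells gave 6 libraries, 3 siGSE1 and 3 control. The authors deposited 1 table of whole-number counts, with no normalization, and FPKM; each deposited FPKM equals the count divided by exonic length and summed counts within 0.0051 in 100% of table entries. The submitters' processing notes name HTSeq, edgeR, HISAT2, cutadapt and StringTie 1.3.3b without roles, and build hg38; the series text names STAR, RPKM and DESeq2 instead. No source used here gives the annotation release.

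Counts were tested with edgeR 4.0.16 (quasi-likelihood, TMM, filterByExpr with minimum count 10 and minimum total 15, group as the only term), adjusted by Benjamini-Hochberg over 15937 genes. SE is the absolute log2 fold change over the square root of F, and intervals use the t distribution with the fit's degrees of freedom. The test was run on counts simulated from its own fitted dispersions, alike in both groups, with 200 genes changed. That check cannot speak to unequal spread between groups. The common coefficient of variation was 7.00%. Alternatives used DESeq2 1.42.0, limma 3.58.1, other scalings and filters, and left out each library. Ratios between genes used log2(FPKM + 0.1) and exact permutation tests. The members and lists were chosen with earlier results of these data known. Named genes were the 8 enzymes, GSE1, KLF6, their close relatives and up to 3 passing genes per list with the smallest adjusted p. They also included the 3 most correlated genes of at least 5 FPKM for the 2 enzymes with the smallest p. Marker genes, overlapping genes, KEAP1, MTHFD2, GLUD1, CYBA, NOX1, DUOX1 and DDR2 were named after their values were seen. Levels per main transcript length (GENCODE 29) were added after seeing the data. Every fit, with all libraries or without 1, assumes that a gene varies alike in both groups. Control pairs spread more, with chi-square over its degrees of freedom of 4.49 to 9.99, against 2.48 to 3.30 for siGSE1 pairs. The protein comparison planned was not run, and some genes that the rule names are not reported here.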

Additional observations from a re-analysis of the deposited data

How the results depend on the processing

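PGD and IDH1 kept their direction and their call in all 15 alternatives, with log2 fold changes of -0.49 to -0.38 and -0.49 to -0.35. TKT lost its call with TPM scaling (-0.087). ME1 lost its call with edgeR's robust prior (0.30) and with limma on log2(FPKM + 1) and log2(FPKM + 0.1) (0.33 in both), so that 0 of the 8 enzymes were higher in these 3 fits; the causes were not tested. Over all genes, lower calls were 929 with TPM scaling, 887 and 909 with limma at pseudocounts of 1 and 0.1, against 1437. TPM scaling also gave 1 higher gene in the lipid synthesis list and 1 in the NRF2 target list, and 0 lower genes in the mitochondrial and folate list. That list had 1 lower gene with the DESeq2 test, with no low-count filter, with the robust prior and with the replicate block, and 0 with both limma fits. Both limma fits gave 0 higher and 1 lower among other pentose genes.

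The deviations of same-numbered libraries from their group means correlated at 0.02, -0.02 and 0.00, and not every library correlated best with its own number. With so few libraries in each group, these correlations cannot tell whether same-numbered libraries shared a culture or day. The fit with the replicate block called 3097 genes against 3167 and changed no call on the enzymes. Lower calls in the mitochondrial and folate list were 1 against 2, and no other list count changed by over 1.5 times.

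Leaving out 1 library at a time gave 1863 to 3562 called genes, 1049 to 1914 higher and 814 to 1648 lower. The lowest values came without siGSE1 replicate 3 and the highest without control replicate 2. Of the 8 enzymes 0 to 1 were higher and 2 to 4 lower. The ranges of higher calls were 0 to 1 for lipid synthesis, 0 to 1 for NRF2 targets, 1 to 3 for the mitochondrial and folate list, 0 to 1 for other pentose genes and 1 to 3 for regulators. The ranges of lower calls were 4 to 8 for lipid synthesis, 9 to 12 for reductases, 18 to 20 for NRF2 targets, 8 to 12 for glycolysis, 0 to 3 for the mitochondrial and folate list and 0 to 2 for other pentose genes. Log2 fold changes ranged from -0.17 to -0.089 for TALDO1, -0.17 to -0.13 for TKT, -0.034 to 0.059 for RPE and 0.22 to 0.44 for ME1. The log2 ratio differences ranged from -0.063 to 0.024 for TKT to TALDO1 and -0.051 to 0.087 for RPIA to RPE.

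With 3 libraries a group, PGLS, at 556 to 841 counts per library, has a 95% interval that reaches 0.30 and so covers a change as large as that of ME1.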

Other observations

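The ontology terms deposited beside TKT are partly those of another gene. The TKT row carries 30 terms, among them collagen binding, collagen-activated tyrosine kinase receptor signaling and endochondral bone growth, and 18 of the 30 are the 18 terms of the DDR2 row, a collagen receptor kinase. RefSeq lists TKT as a synonym of DDR2, and likewise PGD of PHGDH and ME1 of PCDHB16. DDR2 itself had 22 counts in all siGSE1 libraries together and 24 in all control libraries together, whereas TKT had 40277 to 46234 counts per siGSE1 library and 35937 to 51921 per control library. ME1 carries 0 ontology terms in the deposited table, while PGD has 8 and IDH1 has 20. Any count of genes by these terms places TKT under collagen signaling and leaves ME1 out.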
